A study of Drosophila melanogaster with 2 samples.

Results

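The genes described here are 52 genes of mitosis and cytokinesis, chosen by name, in RNA from the fly posterior midgut. They include Cdk1 (cdc2 in the deposited table) and its cyclins, the Polo and Aurora kinases, the spindle checkpoint, kinetochore and spindle proteins, condensin and the proteins that pinch 2 daughter cells apart. All 52 were found among the 13822 loci of the deposited transcript table, 48 under the listed symbol and 4 (fzr, Zw10, Zwilch and Cap-D2) through the Entrez identifier. A locus was counted through the transcript with the highest mean read count.

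Posterior midguts were dissected from Drosophila melanogaster females aged 9 days, of the strain 5966GS-GAL4; UAS-Gli-RNAi, whose genotype field reads wild type. In this strain a drug-inducible driver makes double-stranded RNA against Gli (gliotactin, found at tricellular junctions of epithelia). Induced flies received RU486 and control flies, of the same strain, received ethanol, with 75 midguts and 3 poly(A) RNA libraries per condition. The labels describe the knockdown as one in enterocytes, the absorptive cells of the gut, while the libraries hold RNA of the whole dissected tissue, in which more dividing cells and more RNA per dividing cell cannot be told apart. An effect of RU486 itself cannot be told apart from that of the knockdown. Midguts were pooled at extraction, and although the labels speak of biological replicates, p-values here reflect only how much libraries vary, part of which may be technical. Gli itself read 882, 895 and 920 normalised counts with induction and 2066, 1973 and 1847 without. A library held between 6821908 and 14303722 reads, counted over 1 transcript per locus.

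Entry into mitosis is set by Cdk1 bound to a mitotic cyclin, which stays inactive while Wee-type kinases hold it phosphorylated and is switched on when a Cdc25-type phosphatase removes the phosphate. The spindle checkpoint then delays anaphase until every kinetochore is attached, after which the anaphase-promoting complex destroys securin and the cyclins, and the central spindle directs the cleavage of the cell. In the adult fly midgut stem cells are the main cells that divide, while cells on the way to becoming enterocytes copy their DNA without dividing, a variant called the endocycle in which mitotic genes are largely silent.

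Mitotic transcripts were scarce in control midguts and more abundant in induced ones. Summed over the 52 genes, they came to 413, 437 and 378 RPM (reads relative to the total of the library) without induction and 727, 704 and 709 with it, means of 409 ± 29.5 and 713 ± 12.4 (SD, n = 3). In 47 of the 52 genes every induced library lay above every control library, and in none did every induced library lie below. Among the 11298 loci with a read in any library, 24.8% lay apart in that direction and 24.0% in the other. No member was at 0 in any library, although 37 of the 52 had a mean normalised count under 50 in the controls and 15 had one under 10.

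A normalised count is a gene's reads over its library's TMM scaling factor, the factors averaging 1 across libraries. Genes were tested with edgeR's quasi-likelihood test over all 8236 genes that passed its default filter on low counts, and called at a Benjamini-Hochberg adjusted p under 0.05. Of the members, 49 passed the filter, 42 were called higher in the induced libraries and 0 lower, where 27.6% of all genes tested were called higher and 26.8% lower. At least 2-fold higher were 26 members, against 5.55% of all genes tested. Of these 26, 14 exceeded the minimum of the filter in fewer than 3 control libraries. Of the 49, 16 exceeded the filter's minimum in fewer than 3 control libraries, and so passed with the help of the libraries where they were higher. These 16 held all 6 members that were at least 4-fold higher. Tested members that exceeded the minimum in 0 control libraries were aur, ial, borr, thr, Ndc80, cmet, sub and pav. Those that exceeded it in 1 were cdc2, Cks30A, Zwilch, Nuf2 and asp, and those in 2 were CycB3, stg and feo. Among the 33 members that exceeded the minimum in every control library, 27 were called higher and 0 lower, with a median log2 fold change of 0.65, and 12 were at least 2-fold higher. Of the 7852 genes that met the same condition 26.5% were called higher and 3.76% at least 2-fold higher, with a median of 0.01. At an unadjusted p under 0.05 edgeR's quasi-likelihood test placed 1 member, tum, lower. The DESeq2 Wald test called 0 members lower, and edgeR without control replicate 1 called 1, again tum.

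**Figure D1:**
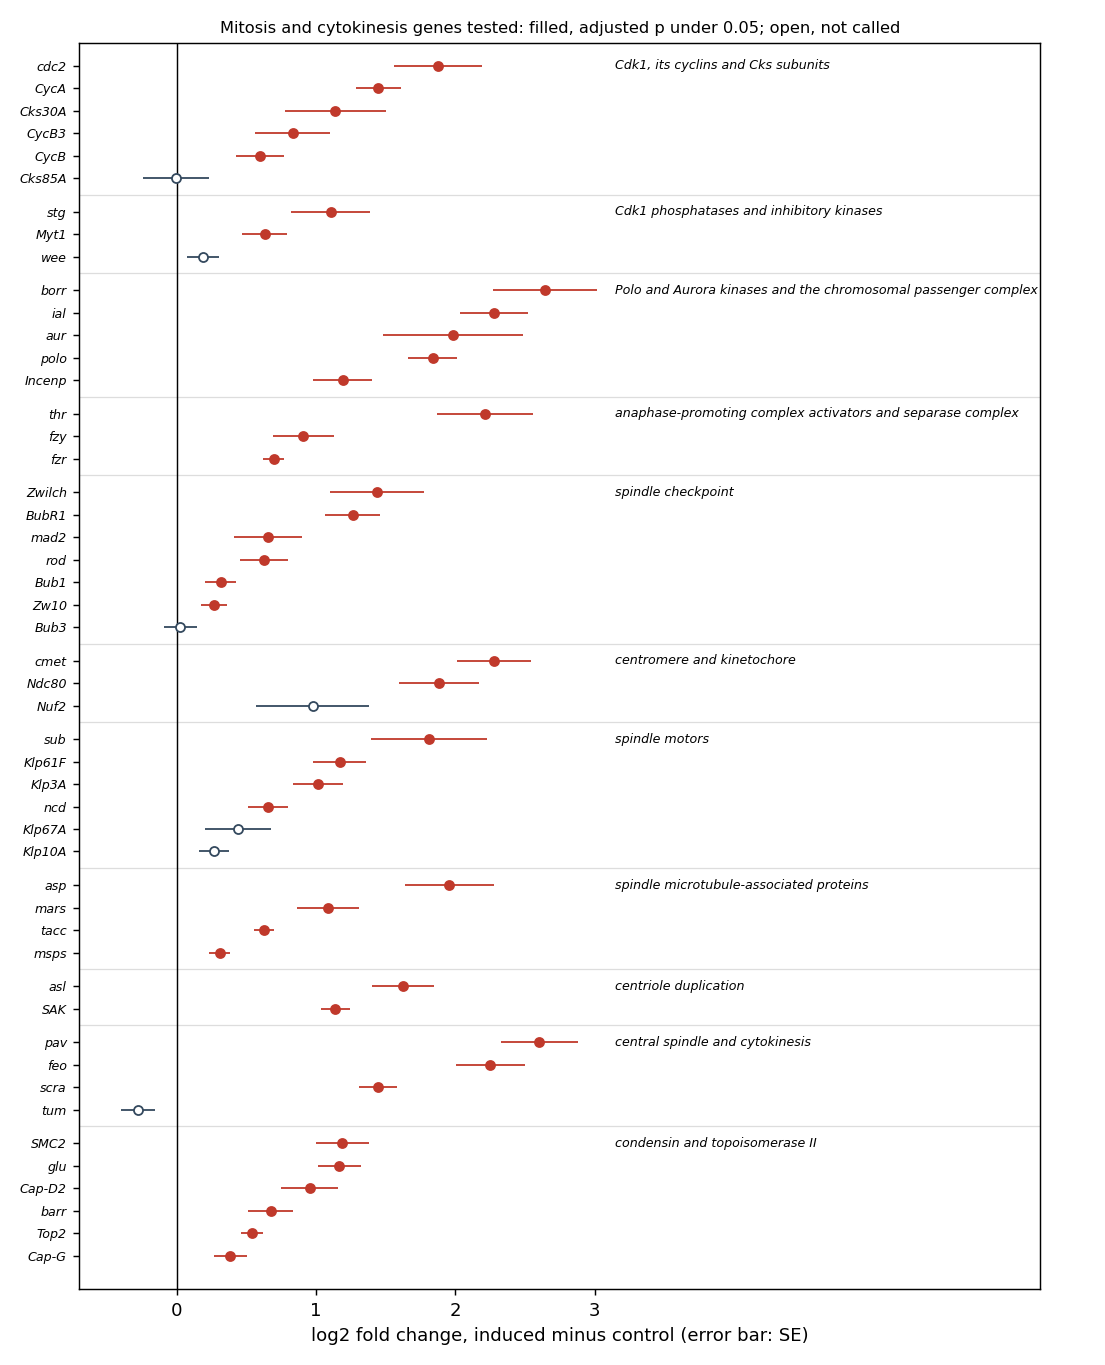
Log2 fold change (x axis, induced minus control, with its SE) of the 49 members that passed the filter, grouped by role. Filled points have an adjusted p under 0.05 and open points do not. The filled points lie between 0.27 (Zw10) and 2.64 (borr), and tum, at -0.28, is the lowest open point.

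Cdk1 and 3 mitotic cyclins rose, the B cyclins with smaller log2 fold changes than CycA. The normalised count of cdc2, which encodes the mitotic kinase itself, was 32.2, 33.6 and 40.8 with induction and 11.2, 4.68 and 15.6 without. CycA, the cyclin that acts from S phase into early mitosis, read 99.2, 119 and 97.1 with induction and 44.8, 36.5 and 32.7 without. In both genes the groups were well apart, with log2 fold changes of 1.88 ± 0.314 (adjusted p = 1.6e-04) and 1.45 ± 0.159 (SE, adjusted p = 3.0e-06). However, cdc2 exceeded the filter's minimum in only 1 control library, and so passed with the help of the induced ones. CycB, whose product drives entry into mitosis and is destroyed at anaphase, read 60.1, 65.0 and 51.7 with induction and 33.6, 38.4 and 45.2 without. Its libraries lay apart by a smaller margin, at a log2 fold change of 0.60 ± 0.171 (adjusted p = 0.0091, between 0.0015 and 0.072 over 12 alternative settings, the call being lost with the DESeq2 Wald test). CycB3, the cyclin that persists latest into anaphase, rose by 0.83 ± 0.268 (adjusted p = 0.017, between 0.0052 and 0.10 over the alternatives). The CycB3 call was lost with the DESeq2 Wald test, without induced replicate 2 and without control replicate 1.

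The Cks genes encode small subunits that bind Cdk1. Cks30A rose from 7.59 ± 4.84 to 16.5 ± 1.78 (SD, n = 3), a log2 fold change of 1.14 ± 0.364, with an adjusted p of 0.017 that ran between 0.0022 and 0.10 over the alternatives. Its call was lost with the DESeq2 Wald test and without induced replicate 1, control replicate 1 or control replicate 2. Cks85A had 38.3 ± 10.4 (SD, n = 3) without induction and 35.2 ± 8.70 with it, and the groups overlapped. In the Ensembl annotation of the BDGP6 assembly exons of Cks85A share bases with exons of CG8112 on the opposite strand. That gene model holds 3024 exonic bases whereas the counted transcript is 609 bases long, so how much of the counted transcript is shared was not determined. The strand setting of the counting is not given in the sources used here, and reads of both genes may be mixed.

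Of the genes that set the phosphorylation of Cdk1, the activating phosphatase gene stg (string) rose and one of the inhibitory kinase genes rose with it. The count of stg was 27.8, 20.2 and 36.3 with induction and 12.6, 14.98 and 10.9 without, a log2 fold change of 1.10 ± 0.283 (adjusted p = 0.0044). Every induced library was above every control library. Myt1, the membrane-bound inhibitory kinase, rose from 53.2 ± 12.7 to 80.5 ± 5.90 (SD, n = 3), by 0.63 ± 0.162 on the log2 scale. For wee, the nuclear inhibitory kinase, the induced libraries read 94.8, 91.9 and 87.1 and the controls 81.2, 80.5 and 79.5. These libraries lay apart but the difference was small, with a log2 fold change of 0.19 ± 0.118 that did not pass (adjusted p = 0.21, between 0.013 and 0.53 over the alternatives, passing with library totals as scaling). twe (twine), the Cdc25-type phosphatase best known from meiosis, was below the filter, with 45 reads in all induced libraries and 21 in all controls, and its libraries overlapped.

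The Polo and Aurora kinases and the chromosomal passenger complex held several of the largest changes. All 5 of these genes rose, and each rose at least 2-fold. Of these, aur, ial and borr exceeded the filter's minimum in 0 control libraries and passed it through the induced ones. The count of polo, a kinase that acts from centrosome maturation to cytokinesis, was 74.6, 71.8 and 75.3 with induction and 23.8, 17.8 and 21.8 without. Induced libraries agreed within a few counts, and the log2 fold change was 1.84 ± 0.176 (adjusted p = 7.5e-07). ial, which encodes Aurora B, the enzyme of the passenger complex, read 43.6, 49.3 and 41.7 against 11.2, 8.43 and 7.79. borr, the Borealin gene that targets the complex to centromeres, read 21.5, 30.3 and 21.8 against 4.199, 4.68 and 1.56. The log2 fold changes of ial and borr were 2.28 ± 0.242 and 2.64 ± 0.372, that of borr resting on 9 control reads in all. Incenp, the scaffold of the complex, rose by less, from 23.4 ± 6.83 to 56.5 ± 6.11 (SD, n = 3), a log2 fold change of 1.19 ± 0.209. aur, which encodes the centrosomal Aurora A, had 9 control reads and 54 induced reads and rose by 1.98 ± 0.503 (adjusted p = 0.0042). The log2 fold change of aur was 1.30 without control replicate 2 and 2.68 without control replicate 3.

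Genes that end mitosis changed by unequal amounts. fzr (rap in the deposited table) activates the anaphase-promoting complex in late mitosis and in the endocycle, and was the most abundant of these, at 400, 417 and 409 with induction and 231, 262 and 260 without. fzy, the Cdc20 activator that triggers anaphase, read 32.9, 38.1 and 32.7 against 15.4, 17.8 and 21.8. Both rose, by 0.70 ± 0.076 and 0.91 ± 0.218 on the log2 scale. thr, which encodes the partner of separase, the protease that releases sister chromatids, read 22.8, 22.4 and 19.1 against 6.999, 2.81 and 4.68, a log2 fold change of 2.21 ± 0.344. It passed the filter through the induced libraries, with 0 control libraries above the minimum. pim, the securin gene, fell under the filter, with 33 induced and 4 control reads in all. Its induced libraries lay above its controls, and without a filter its log2 fold change was 2.42 ± 0.655 (edgeR quasi-likelihood test, adjusted p = 0.002, and 0.026 with the DESeq2 Wald test).

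**Figure D2:**
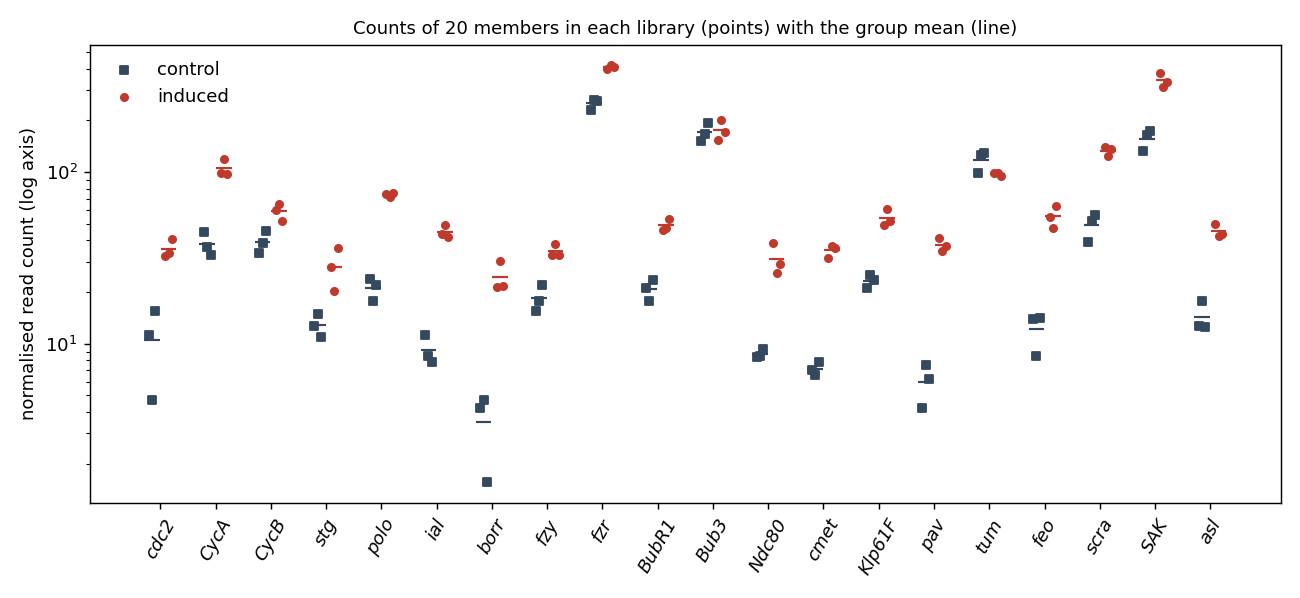
Normalised read count (y axis, log scale) of 20 members in each control library (squares) and each induced library (circles), with short lines for the group means. The groups overlap only for Bub3 and tum, and polo reads between 71.8 and 75.3 in the induced libraries.

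Spindle checkpoint genes fell into abundant members with small differences and scarce members with larger ones. BubR1, a component of the inhibitor of the anaphase-promoting complex, read 46.1, 47.1 and 53.5 with induction and 21.0, 17.8 and 23.4 without, a log2 fold change of 1.26 ± 0.198 (adjusted p = 9.3e-05). Bub3, its binding partner, read 153, 201 and 172 against 151, 166 and 193. The Bub3 groups overlapped, with a log2 fold change of 0.03 ± 0.120 and an adjusted p of 0.87. Bub1, the kinase that recruits BubR1 to kinetochores, read 454, 385 and 423 against 371, 373 and 263, and rose by 0.32 ± 0.111 (adjusted p = 0.027, between 0.0031 and 0.14 over the alternatives). The Bub1 call was lost without induced replicate 1 or induced replicate 3, and its log2 fold change was 0.19 without control replicate 3. mad2, whose product also binds the Cdc20 activator, rose by 0.65 ± 0.243, a call that was lost in 10 of the 12 alternatives, among them each of the 6 that leave out a library (adjusted p = 0.044, between 0.0079 and 0.27).

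Zw10, rod and Zwilch encode one complex that brings dynein and checkpoint proteins to kinetochores. They rose by 0.27 ± 0.094, 0.63 ± 0.172 and 1.44 ± 0.338 on the log2 scale, from control means of 201 ± 11.8, 32.3 ± 2.66 and 8.21 ± 3.72 (SD, n = 3). The call of Zw10 was lost with the DESeq2 Wald test and without induced replicate 1, induced replicate 2 or control replicate 1 (adjusted p = 0.027, between 0.0014 and 0.11), and that of rod was lost with the DESeq2 Wald test (adjusted p = 0.007, between 0.0012 and 0.076). Zw10 and Klp3A start 138 bases apart on opposite strands of chromosome X, by the deposited coordinates, whose build is not named, from 2498224 to 2500860 and from 2493190 to 2498085.

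Centromere and kinetochore genes were among the scarcest. cmet, which encodes the CENP-E-type kinesin that carries chromosomes to the spindle equator, read 31.6, 37.0 and 36.3 with induction and 6.999, 6.55 and 7.79 without. Ndc80, a microtubule-binding protein of the outer kinetochore, read 38.6, 25.8 and 29.0 against 8.40, 8.43 and 9.35. Both genes had controls that lay close together and far below the induced libraries, with log2 fold changes of 2.28 ± 0.264 (adjusted p = 5.2e-06) and 1.88 ± 0.286 (adjusted p = 6.8e-05). Both exceeded the filter's minimum in 0 control libraries and passed it through the induced ones. Nuf2, which pairs with Ndc80, read 19.0, 24.7 and 10.9 against 5.60, 14.1 and 4.68. Its groups overlapped through 1 control library, and the log2 fold change of 0.97 ± 0.407 did not pass (adjusted p = 0.058, between 0.012 and 0.18 over the alternatives). Nuf2 passed in 5 alternatives, those with library totals, no filter, the replicate block, and without induced replicate 3 or control replicate 2. Without control replicate 2 its log2 fold change was 1.74. cid, which encodes the centromeric histone, had 17 induced and 5 control reads in all and was below the filter.

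Among spindle motors the fold differed from gene to gene. Klp61F, the motor that pushes the poles apart, read 49.3, 60.5 and 51.7 with induction and 21.0, 25.3 and 23.4 without, and Klp3A, a motor of chromosomes and the central spindle, rose from 26.9 ± 2.92 to 54.1 ± 5.17 (SD, n = 3). Their log2 fold changes were 1.17 ± 0.189 and 1.01 ± 0.181. sub (subito), a motor of the central spindle, had 10 control and 53 induced reads and rose by 1.81 ± 0.418, and ncd, a minus-end motor that focuses poles, rose by 0.65 ± 0.147. Of these motors, sub passed the filter through the induced libraries, with 0 control libraries above the minimum. Klp10A, which shortens microtubules, was the most abundant motor, at 620, 630 and 622 with induction and 564, 583 and 391 without. Its groups lay apart, with control replicate 3 the lowest, and the log2 fold change of 0.27 ± 0.110 did not pass (adjusted p = 0.055, between 0.0076 and 0.13 over the alternatives). Klp10A passed in 5 of these, without control replicate 1 or 2 among them, and its log2 fold change was 0.12 without control replicate 3. Klp67A, which also limits microtubule length, had a log2 fold change of 0.44 ± 0.234 that did not pass either (adjusted p = 0.16, between 0.034 and 0.42 over the alternatives, passing with library totals).

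The microtubule-associated proteins showed the same spread of levels. tacc and msps, whose products act together to stabilise centrosomal microtubules, had the highest counts of all members. tacc read 990, 848 and 961 with induction and 626, 604 and 589 without, and msps 674, 713 and 698 against 580, 605 and 489. Both rose, by 0.63 ± 0.072 and 0.31 ± 0.078 on the log2 scale. asp, needed to focus spindle poles, was scarce and rose by 1.96 ± 0.318, from 9.82 ± 5.88 to 43.2 ± 7.91 (SD, n = 3), and mars, a spindle microtubule stabiliser, rose by 1.09 ± 0.222. Without control replicate 2 the log2 fold change of asp was 2.61.

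Both centriole genes rose. SAK encodes the kinase that starts centriole duplication, and read 379, 314 and 335 with induction and 132, 165 and 173 without. asl encodes the centriole protein that recruits that kinase, and read 49.9, 42.6 and 43.5 against 12.6, 17.8 and 12.5. The log2 fold changes were 1.14 ± 0.107 (adjusted p = 6.2e-07) and 1.63 ± 0.222 (adjusted p = 2.5e-05). In the BDGP6 annotation 18.1% of the exonic bases of SAK lie in exons of M6 on the opposite strand, and M6 had mean normalised counts of 436 without induction and 980 with it. The part of M6 reads in the count of SAK was not tested.

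Cytokinesis genes differed widely among themselves. pav encodes the kinesin subunit of centralspindlin, the complex that bundles the central spindle and positions the cleavage furrow, and tum encodes its GTPase-activating subunit. pav read 41.1, 34.8 and 37.2 with induction and 4.199, 7.49 and 6.23 without, whereas tum read 98.6, 98.7 and 94.3 against 98.0, 126 and 129. The pav groups lay far apart, and those of tum overlapped through control replicate 1. The log2 fold change was 2.60 ± 0.277 for pav (adjusted p = 2.1e-06) and -0.28 ± 0.122 for tum (adjusted p = 0.067). With 0 control libraries above the filter's minimum, pav passed through the induced ones. Without control replicate 1 tum fell by 0.38 on the log2 scale (adjusted p = 0.017, between 0.017 and 0.51 over the alternatives), and with library totals as scaling its log2 fold change was -0.09. feo, which encodes the microtubule bundler of the central spindle, read 55.0, 47.1 and 63.5 against 14, 8.43 and 14.03, and scra, the Anillin gene of the contractile ring, read 139, 124 and 135 against 39.2, 51.5 and 56.1. Both rose, by 2.25 ± 0.245 and 1.45 ± 0.138. The pav transcript counted lies on the plus strand of chromosome 3L from 4242736 to 4246236 and has 6 exons, and that of feo on the minus strand of X from 10746478 to 10748907 with 1 exon, both by the deposited coordinates.

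Condensin, the complex that compacts mitotic chromosomes, and topoisomerase II, which untangles DNA, rose in all 6 genes. Top2 was the most abundant and rose by 0.54 ± 0.080 on the log2 scale, reading 536, 519 and 529 with induction and 381, 388 and 315 without. The ATPase subunit genes SMC2 and glu rose by 1.19 ± 0.191 and 1.17 ± 0.155, and Cap-D2 and barr by 0.95 ± 0.202 and 0.67 ± 0.163. Cap-G, a further regulatory subunit, rose by 0.38 ± 0.119, a call lost with the DESeq2 Wald test and without induced replicate 1 or control replicate 1 (adjusted p = 0.014, between 0.0012 and 0.11). Cap-D2 and Bub3 start 256 bases apart on opposite strands of chromosome 3R in the deposited table, from 25501398 to 25505985 and from 25499855 to 25501141, with log2 fold changes of 0.95 and 0.03.

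In RPKM (reads per kilobase of transcript, scaled to library size), the control level of the members ran from 0.0979 for cmet to 15.1 for Klp10A. The relation of level to fold change is given for the 33 members above the filter's minimum in every control library, since scarcer members could enter the test only if they were high with induction. Over these 33 the log2 fold change and the log2 control level per length had a Pearson r of -0.67 and a Spearman rho of -0.66, as a description across genes, which are not independent. The control counts enter both measures. With the level taken from control replicate 1 alone and the fold change from the other 5 libraries, r was -0.59 and rho -0.58 over the same 33 members. The 6 most abundant members in the controls, tacc, msps, Klp10A, Top2, Bub1 and fzr, held 62.3% of the control reads of all members, so that sums over the members mostly follow these genes.

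Summed by role, the groups of genes lay apart between the conditions in each of the 11 roles. The Polo, Aurora and passenger complex genes summed to between 5.13 and 6.83 RPM without induction and between 22.6 and 24.9 with it. Centromere and kinetochore genes went from between 2.19 and 3.02 to between 8.97 and 10.35 RPM. The smallest ratio was that of the spindle checkpoint, from between 69.3 and 80.6 to between 106.5 and 109.7, a sum that is mostly Bub1, Zw10 and Bub3. Ratios were smaller after TMM scaling than in RPM. They were 1.255 against 1.43 for the checkpoint and 3.48 against 3.97 for the Polo, Aurora and passenger complex genes.

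In the BDGP6 annotation 31 members share no exonic base with another gene and 21 share some with a gene on the opposite strand, 9 of them over more than 10% of their exonic bases. These 9 are Cks85A, SAK, sub, Bub3, wee, mars, ncd, mad2 and Klp61F, by gene models that can be longer than the counted transcript. The partner named for a member is the gene that shares the most bases with it. Ir54a, the partner of sub, had mean normalised counts of 0.52 without induction and 0 with it. For galene, the partner of Klp61F, they were 87.0 and 38.4. The other partners were CG8112 (526.9 and 841.1), M6, ppk19 (8.003 and 15.8), Rat1 (415.7 and 387.0), drk (737.7 and 869.9), ca (476.6 and 533.3) and kri (296.0 and 280.1), for Cks85A, SAK, Bub3, wee, mars, ncd and mad2 in that order. The part of partner reads in the counts of these 9 members was not tested.

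**Figure D3:**
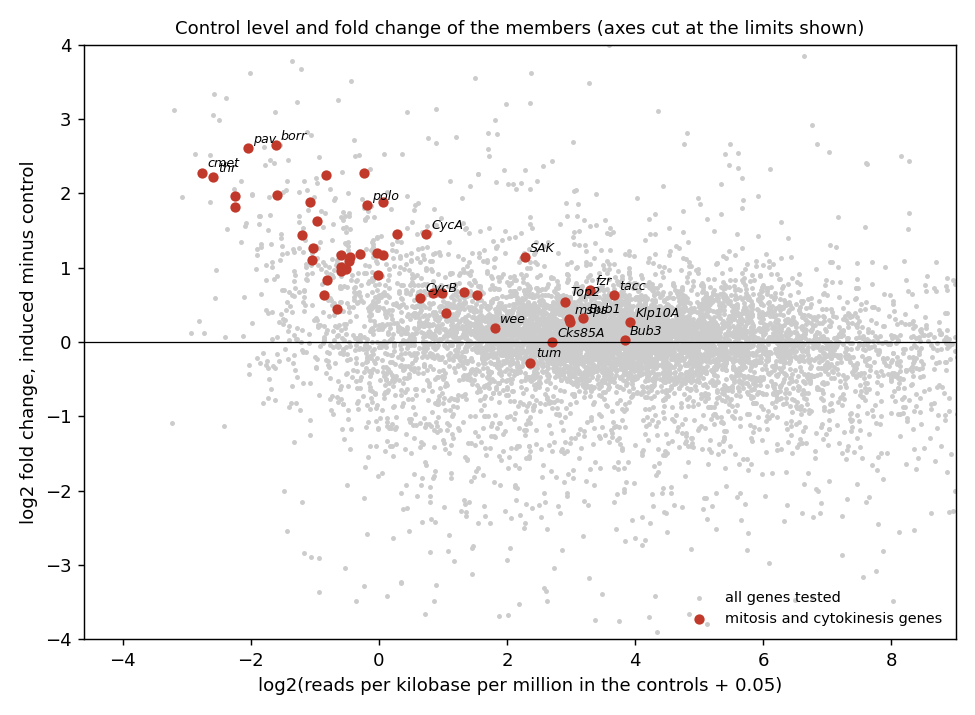
Log2 fold change (y axis) against control level per length (x axis, log2 of RPKM plus 0.05) for all 8236 genes tested (grey) and the 49 members tested (red). Members under 1 RPKM lie above 0, where 16 of the 49 passed the filter with fewer than 3 control libraries above its minimum. Of the abundant members, Bub3 (0.03) and Klp10A (0.27) lie nearer 0 than Top2 (0.54), tacc (0.63) and fzr (0.70).

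Ratios between 2 genes within one library do not depend on how libraries are scaled. The ratios of 10 pairs of partner genes were compared, chosen after their values were known, with exact permutation tests whose smallest possible two-sided p with 3 libraries against 3 is 0.10. The ratio of pav to tum reads was 0.417, 0.352 and 0.394 with induction and 0.0429, 0.0597 and 0.0482 without. It was higher in every induced library, by 2.96 on the log2 scale (exact permutation p = 0.10, adjusted over the pairs 0.17). The ratio of BubR1 to Bub3 was 0.302, 0.235 and 0.312 with induction and 0.139, 0.107 and 0.121 without, again apart. CycB to CycA moved the other way, at 0.605, 0.547 and 0.533 against 0.750, 1.05 and 1.38. The ratio of BubR1 to Bub1, of Cks30A to Cks85A and of SAK to asl also lay apart between the groups, whereas fzy to fzr, stg to twe, Myt1 to wee and cmet to Ndc80 overlapped. Each of the 6 pairs that lay apart had the smallest p the design allows, and an adjusted p of 0.17. As the pairs were chosen with their values known, these p-values only describe the ratios and are no test of them. Among the paired genes pav, cmet and Ndc80 exceeded the filter's minimum in 0 control libraries, Cks30A in 1 and stg in 2. The gene twe was below the filter.

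**Figure D4:**
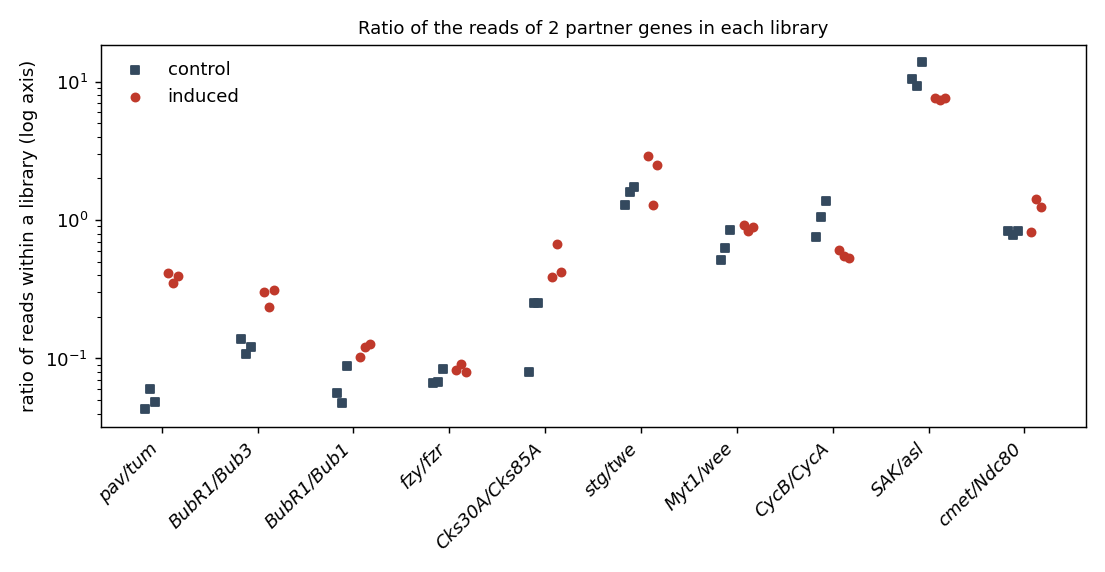
Ratio of the reads of 2 partner genes within a library (y axis, log scale) for 10 pairs, with 3 control libraries (squares) and 3 induced libraries (circles) each. The pav to tum ratio lies between 0.0429 and 0.0597 without induction and between 0.352 and 0.417 in the induced libraries.

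A wider list of 90 other genes with roles in mitosis changed less uniformly. Of 76 tested, 39 were called higher and 3 lower, where 27.6% of all genes tested were called higher and 26.8% lower. The median log2 fold change of the 76 was 0.37, beside 0.03 for all genes tested. The genes with the largest rises were Sep5, a septin gene (2.51 ± 0.497, from 5 control reads in all), dgt6, which serves microtubule nucleation within the spindle (1.97 ± 0.412), and cnn, the centrosome scaffold gene (1.66 ± 0.108). Sep5 and dgt6, the latter with 10 control reads, exceeded the filter's minimum in 0 control libraries and passed it through the induced ones. Further genes called higher exceeded it in fewer than 3 control libraries, among them mud and sti, with 2 each. How many of the 39 exceeded it in every control library was not counted. mud, which orients the spindle, sti, the citron kinase gene of cytokinesis, and pbl, which activates Rho1 at the furrow, rose by 1.57 ± 0.246, 1.504 ± 0.249 and 1.45 ± 0.124. The 3 that fell were l(1)dd4, which encodes a gamma-tubulin ring protein (-1.38 ± 0.113), nuf, a recycling endosome gene of furrow formation (-0.74 ± 0.093), and trbl, an inhibitor of string (-0.42 ± 0.065). Without control replicate 3 the number that fell was 6. The formin gene dia (-0.09), the cohesin loader gene Nipped-B (0.03), the phosphatase subunit gene tws (-0.07) and endos, a phosphatase inhibitor gene (0.19), did not pass. Several genes of this list, such as those of myosin, Rho1 and the septins, also serve the cytoskeleton of cells that do not divide.

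Genes of DNA replication and S phase, which the endocycle uses too, were higher in 30 of 37 tested and lower in 1. Their median log2 fold change was 1.04. Of all genes tested 27.6% were called higher and 26.8% lower, with a median of 0.03. Some S phase genes called higher exceeded the filter's minimum in fewer than 3 control libraries. Among these were DNApol-alpha73, with 0, and DNApol-alpha180 and DNApol-epsilon, with 2 each. Reads of the S phase genes summed to between 418 and 459 RPM without induction and between 694 and 697 with it, a ratio of 1.56 in RPM and 1.37 after TMM scaling. The difference between the S phase genes and the mitotic genes was not tested.

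Markers of intestinal progenitors moved in the same direction as the mitotic genes. Of 14 such markers 13 were tested, 10 were called higher and 1, mira, lower, and the list summed to between 468 and 546 RPM without induction and between 897 and 941 with it. For this and the marker lists below, 27.6% of all genes tested were called higher and 26.8% lower. Of the progenitor markers called higher, sna and spdo exceeded the filter's minimum in 1 control library each. The stem cell ligand gene Dl rose from 150 to 424 normalised counts, and wor was below the filter. Mitotic and progenitor sums differed between conditions by 1.74-fold and 1.77-fold in RPM. Stat92E had the most reads of the progenitor list, 6808 in the controls and 10451 with induction, and was not called (log2 fold change 0.08). The gene esg came next, with 1719 and 4775. The progenitor ratio thus depends strongly on these genes, and the mitotic ratio on its most abundant members. The likeness of the 2 ratios was not tested. The ovary, whose cells also divide, was looked for with 20 germline and eggshell markers, which summed to between 54.2 and 63.2 RPM without induction and between 66.95 and 68.7 with it. That is a ratio of 1.14 in RPM and of 0.998 after TMM scaling, where the progenitor sum has 1.55 and the mitotic sum 1.53. gus and Fcp3C held most of the germline and eggshell reads, 893 and 394 in the controls and 1332 and 532 with induction. The germline and eggshell ratio thus mostly follows these 2 genes. Only 4 of the 20 markers passed the filter, piwi and AGO3 higher, gus and Fcp3C not called. The eggshell genes Cp36 and Cp38 had 2 control reads each and 0 induced reads, and dec-1 had 0 in all libraries. Vm26Aa had 2 control reads and 1 induced read, and Vm26Ab 0 and 2. For vas the mean counts were 1.61 without induction and 0.795 with it. Of 11 enteroendocrine markers 10 were tested, 1 was called higher and 6 lower, and the list summed to between 726 and 754 RPM without induction and between 620.5 and 655 with it. Of 11 enterocyte markers 10 were tested, 4 higher and 5 lower, and the list summed to between 30250 and 31260 RPM without induction and between 17280 and 17910 with it, a ratio of 0.570 in RPM and 0.4995 after TMM scaling. Of the 5 lower, the lipase gene mag was 8.42-fold lower and the amylase gene Amy-p 4.71-fold lower. The 4 higher were Mur29B (5.27-fold), nub (1.555-fold), Jon65Aiii (1.49-fold) and Myo61F (1.22-fold). The median log2 fold change of the enterocyte markers tested was -0.09. Jon25Biii and mag had the most control reads of this list, 342902 and 168528, against 128307 and 29559 induced reads. The part of these cell types in the mitotic counts was not tested.

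**Figure D5:**
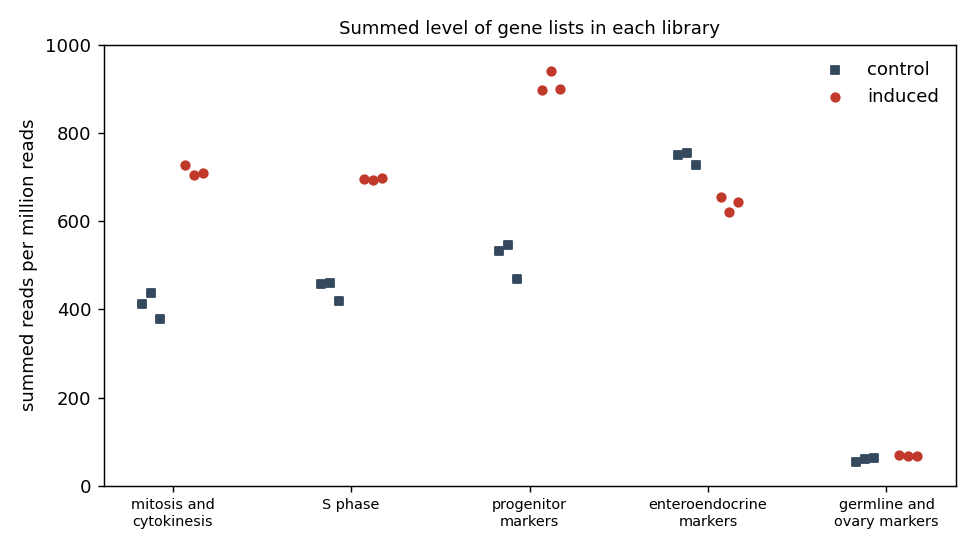
Summed RPM (y axis, from 0) of 5 gene lists in each control library (squares) and induced library (circles). The mitosis and cytokinesis genes lie between 378 and 437 without induction and between 704 and 727 in the induced libraries, and the progenitor markers between 468 and 546 and between 897 and 941.

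The authors' deposited gene table lists 43 of the 52 members among its 3049 genes, all 43 with a positive log2 fold change of induced over control. In the authors' deposited table borr has 2.784, pav 2.636 and pim 2.367. Of the members called higher here, mad2 and Zw10 are not in the authors' deposited table, and 3 members that table lists were not called here, Nuf2 and Klp10A, which did not pass, and pim, which was below the filter. Of the members, 12 have several transcript rows with at least 100 reads in all, and exons shared by such transcripts share reads. The log2 fold change within one of these members spread by 0.18 at most.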

How the data were processed

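RNA of posterior midguts was sequenced in 3 induced and 3 control libraries. Raw read counts per transcript were deposited by the authors, per the file headers without normalisation, and DESeq was used, per the submitters' processing notes. The sources used here do not give the aligner, counting program, strand setting or build. Deposited counts over all transcripts were 1.998 times those over 1 transcript per locus. The deposited gene table gives the authors' log2 fold changes and p-values. A further 6 per-sample columns of authors' normalised values were not used. Every row has a locus identifier.

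Each locus was represented by its most-read transcript. Symbols were updated through Entrez identifiers with RefSeq release 6, shared exons were read from the BDGP6 annotation (52 members matched), and sequences were not analysed here. Counts were fitted with edgeR 4.0.16 (R 4.3.3) after TMM scaling and the default filter (about 1.10 CPM in 3 libraries), and called at an adjusted p under 0.05. Standard errors of log2 fold changes, given after ±, came from the fold change and the square root of its F statistic, and those marked SD from 3 libraries. Alternatives were DESeq2 size factors, library totals, no filter, the DESeq2 1.42.0 Wald test, a replicate block, sums over transcripts and leaving out each library. In simulated counts for 8236 genes of this comparison, the procedure recovered 42% of 50 genes changed 1.25-fold, 82% at 1.5-fold, 98% at 2-fold and 100% at 4-fold, and called 0.187% of unchanged genes. The changed genes were drawn from all genes tested, whose median mean count was 247.7, against 38.5 for the members tested. Recovery at the members' lower counts was not measured, and fewer genes were changed than were called in the data. Members, lists and pairs were chosen with earlier results of these data known. All members may be named, and from the wider mitosis list at most 6 called genes per direction with the largest change and 4 not called with the highest count.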

Additional observations from a re-analysis of the deposited data

How the results depend on the processing

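Members called higher numbered 36 to 46 over the 6 alternatives that keep all libraries (42 in the main setting) and 35 to 42 when 1 library was left out. Of the 42 calls, 34 held in every alternative that tested the gene, aur and sub being below the filter without induced replicate 1, and 8 were lost in at least 1 (CycB, CycB3, Cks30A, Bub1, mad2, Zw10, rod and Cap-G). Members called lower numbered 0, or between 0 and 1 with a library left out, the 1 being tum without control replicate 1. The members' median log2 fold change was 1.09, and lay between 0.969 and 1.085 with a library left out. With library totals as scaling 3737 of all genes were higher (71.2% of calls against 50.8%), the members' median was 1.275, and the median of all genes moved by 0.19. The members' median exceeded that of all genes by 1.06 under both scalings. Scaling moves all genes nearly alike, so this excess could hardly differ and is no separate check. In the wider mitosis list between 3 and 6 genes fell with a library left out. Small differences changed sign: Cks85A was at 0.18 with library totals, at 0.012 without a filter and between -0.25 and 0.20 with a library left out, and Bub3 between -0.066 and 0.13. The cause of these changes was not tested. Replicate numbers did not pair the libraries (correlations of same-numbered deviations -0.158, 0.0473 and -0.0944 over 6838 genes), and no library correlated best with its own number in the other group. With the replicate block 43 members were higher and 0 lower. Control counts of 11 reads or fewer over all libraries limit the precision of borr, aur, sub, thr, pim and cid.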
